A study of Mus musculus with 6 samples.

Results

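The superoxide dismutase genes Sod1, Sod2 and Sod3, the catalase gene Cat and the peroxiredoxin genes Prdx1 to Prdx6 encode the main enzymes that remove superoxide and peroxides from mouse cells. They were taken from the deposited RNA-seq table by gene symbol, which found 10 of 10 genes among 55416, and all 10 were among the 15269 genes with enough counts to be tested. The libraries came from primary chondrocytes, the cells of cartilage, which the labels place in knee joints of newborn mice, whereas the study's supplement isolates chondrocytes from older animals. Cells were grown in DMEM/F12 medium with fetal bovine serum and were transfected with siRNA: the siNC group (n = 3 libraries) received a non-targeting control, and the siPkm2 group (n = 3 libraries) an siRNA to the pyruvate kinase M2 isoform of the Pkm gene. The labels give siNC the genotype WT and write that of siPkm2 replicates 1, 2 and 3 as knockdown of PKM2, PKM3 and PKM4, while their titles all name siPKM2, and all 3 were taken as siPkm2. No label says whether the libraries of a group came from separate cultures or animals, so p-values measure the spread between these libraries, which may be technical. In bulk RNA, fewer cells of a type and less RNA per cell cannot be told apart.

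Superoxide is formed when oxygen takes up a single electron, chiefly at the mitochondrial respiratory chain and at NADPH oxidases. Superoxide dismutases turn it into hydrogen peroxide in separate compartments: SOD1 in the cytosol with copper and zinc, SOD2 in the mitochondrial matrix with manganese, and SOD3 outside the cell with copper and zinc, where it is held in the matrix of tissues such as cartilage. Hydrogen peroxide is then removed by catalase, mostly in peroxisomes, and by peroxiredoxins, whose reactive cysteine is oxidised and afterwards reduced by thioredoxin or, for PRDX6, by glutathione.

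Each library held between 22317065 and 25691096 estimated counts, of which the 10 genes together took 0.107% to 0.256%, and single counts ran from 1087 to 18698, so counting error was small beside the spread between libraries. Levels compared between libraries are CPM, the share of a library's counts scaled by TMM factors, and levels compared between genes are TPM, which also divides by transcript length. Pkm, the targeted gene, stood at 2335, 2746 and 1674 CPM in siNC replicates 1 to 3 and at 336, 541 and 309 CPM in siPkm2, with no overlap, and its log2 fold change was -2.51 without the block described next (edgeR's quasi-likelihood test, adjusted p = 0.0738) and -2.53 with it (adjusted p = 0.00932). The chondrocyte markers were present in all libraries, but replicate 2 stood apart in both groups. Summed over 12 markers, replicate 2 had 11530 CPM in siNC and 16108 CPM in siPkm2, against 47688 to 56447 CPM in the other 4 libraries. The median gene of an NF-kB response list of 17 tested genes was 44.9-fold higher in siNC replicate 2 than in the mean of siNC replicates 1 and 3, and 11.0-fold higher in siPkm2 replicate 2. Over all genes tested these medians were 0.970-fold and 0.992-fold. Of 14 leukocyte markers, the 8 that failed the count filter, Ptprc and Adgre1 among them, stood at or under 0.438 CPM in every library, and the summed list reached 79.4 CPM in siNC replicate 2 and 67.0 CPM in siPkm2 replicate 2, mainly from Cd68 and Cd14. Libraries with the same replicate number deviated from their group means together, and each comparison is therefore given without and with the replicate number as a block, that is, as a difference within pairs of equal number.

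Knockdown of Pkm2 went with lower Sod1 and Cat and with higher Prdx5 in every replicate pair, and these were the genes whose groups did not overlap. In edgeR's quasi-likelihood test without the block, 0 of the 10 genes reached an adjusted p under 0.05 and 3 (Sod1, Cat and Prdx5) had an unadjusted p under 0.05, where 0% and 17.6% of all genes tested did so. With the block, Sod1 and Cat fell and Prdx5 rose, 3 of 10 genes, against 23.1% of all genes tested, of which 12.3% were higher and 10.8% lower in siPkm2. None of the 10 also passed a fold of 2, which 5.83% of all genes tested did with the block. The groups did not overlap in 3 of 10 genes, against 24.3% of all genes tested, and 5 of 10 (Sod1, Sod2, Cat, Prdx5 and Prdx6) had the same sign of the difference in all 3 pairs, against 61.1%. The shares among the 10 were thus close to those of the whole table, and their median log2 fold change with the block was 0.0088, against -0.010 over all genes tested.

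**Figure D1:**
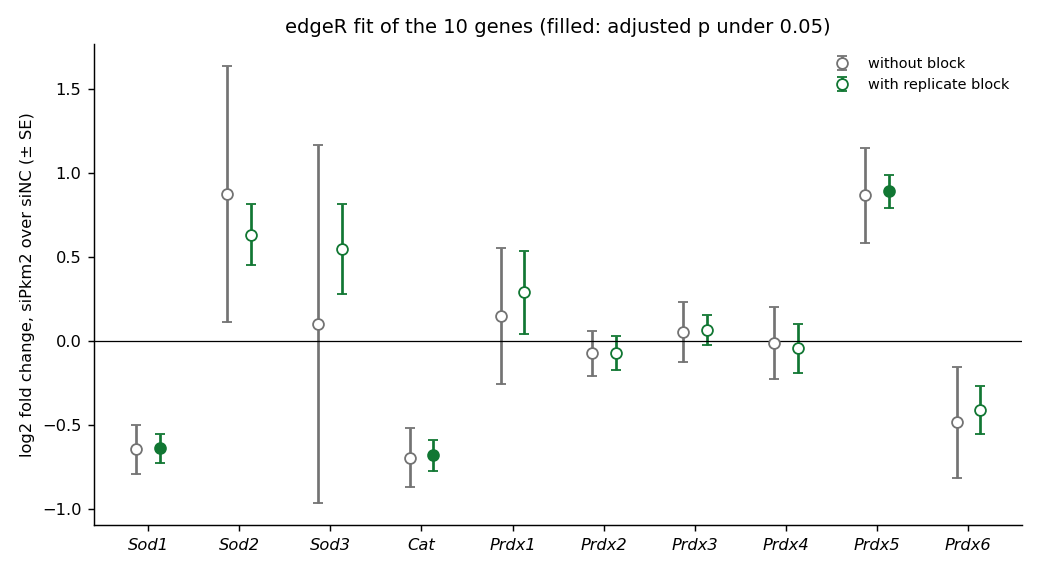
Fitted log2 fold change (siPkm2 over siNC) of each gene with its standard error, from edgeR without the block (grey) and with the replicate number as a block (green), filled circles marking an adjusted p under 0.05. Sod1 and Cat lie below 0 and Prdx5 above 0 in both fits with similar values, while Sod2 and Sod3 have far wider errors without the block.

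The promoters of the genes that passed with the block, Sod1 and Cat lower and Prdx5 higher in siPkm2, are shown first. The sequences are the 250 bases before the start site given by RefSeq on GRCm38.p6, which lists 8 of the 10 genes (not Sod3 and Prdx6), each written 5' to 3' on the gene's own strand. They lie at chr16:90220512-90220761 (plus strand) for Sod1, chr2:103485154-103485403 (minus strand) for Cat and chr19:6910107-6910356 (minus strand) for Prdx5. Capitals mark the core of the antioxidant response element, the letters TGACNNNGC bound by NRF2 with small MAF proteins, in Sod1, and the GC box GGGCGG bound by SP1 in Cat and Prdx5. All motifs were sought on both strands, and no match overlapped a match to a different motif, while GC boxes of Sod1 overlapped each other at 146 and 141 and at 102 and 98 bases before the start site.
Sod1: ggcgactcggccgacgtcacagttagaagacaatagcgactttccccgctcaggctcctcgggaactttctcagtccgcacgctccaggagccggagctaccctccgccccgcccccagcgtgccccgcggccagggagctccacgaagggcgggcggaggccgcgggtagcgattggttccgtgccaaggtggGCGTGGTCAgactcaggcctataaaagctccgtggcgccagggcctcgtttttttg
Cat: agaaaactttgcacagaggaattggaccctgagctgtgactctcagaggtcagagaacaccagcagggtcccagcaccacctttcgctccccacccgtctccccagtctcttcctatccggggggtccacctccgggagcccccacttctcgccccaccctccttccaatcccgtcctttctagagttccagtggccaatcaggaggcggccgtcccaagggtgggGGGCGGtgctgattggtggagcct
Prdx5: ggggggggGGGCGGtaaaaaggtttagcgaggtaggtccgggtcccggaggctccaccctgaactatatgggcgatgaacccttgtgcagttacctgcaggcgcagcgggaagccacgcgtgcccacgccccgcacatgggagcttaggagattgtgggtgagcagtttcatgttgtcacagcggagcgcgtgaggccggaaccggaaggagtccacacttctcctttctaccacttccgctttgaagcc
The element core in Sod1 begins 56 bases before the start site, on the opposite strand. Cat and Prdx5 held no such core in this window, and their GC boxes lay 24 and 242 bases before the start. Of 32851 RefSeq promoters of this length, 10.2% held the element core and 32.7% a GC box, against 2 and 7 of the 8 promoters here.

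Sod1, the cytosolic copper and zinc enzyme, had the highest mean TPM of the 10 transcripts in siNC, though in siNC replicate 2 Prdx1 stood higher, at 724 TPM. In siNC it stood at 648, 618 and 603 TPM in replicates 1 to 3, and in siPkm2 at 401, 396 and 379 TPM. On the CPM scale the values were 188, 153 and 149 in siNC and 110, 103 and 101 in siPkm2. Every siPkm2 library lay below every siNC library, and replicate 2 was not set apart in either group. Sod1 fell by 0.64 on the log2 scale (SE 0.087, edgeR's quasi-likelihood test with replicate block, adjusted p = 0.0141), to 0.642 of the control level, and without the block the log2 fold change was -0.65 (SE 0.14, adjusted p = 0.132). The gene (ENSMUSG00000022982) lies at chr16:90220754-90226329 on GRCm38.

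Cat, the peroxisomal catalase, had the lowest mean TPM of the 10 in both groups. It was the lowest in every siPkm2 library, but in each siNC library another of these genes stood lower. It stood at 90.5, 129 and 94.6 CPM in siNC replicates 1 to 3 and at 61.8, 71.2 and 60.9 CPM in siPkm2. The groups did not overlap, and replicate 2 was the highest library of each group. Cat fell by 0.68 on the log2 scale (SE 0.093, edgeR with replicate block, adjusted p = 0.0142), and without the block the log2 fold change was -0.70 (SE 0.18, adjusted p = 0.145). The differences within pairs were -0.55, -0.86 and -0.63 on the log2 scale with 0.5 CPM added. Cat (ENSMUSG00000027187) lies at chr2:103453849-103485160.

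Prdx5, a peroxiredoxin of mitochondria, peroxisomes and cytosol that also reduces peroxynitrite, moved in the opposite direction. It stood at 156, 238 and 131 CPM in siNC replicates 1 to 3 and at 317, 389 and 251 CPM in siPkm2. The lowest siPkm2 library lay above the highest siNC library, and replicate 2 was the highest of each group. Prdx5 rose by 0.89 on the log2 scale (SE 0.099, edgeR with replicate block, adjusted p = 0.0118), a 1.85-fold increase, and without the block the log2 fold change was 0.87 (SE 0.28, adjusted p = 0.202). Prdx5 (ENSMUSG00000024953, chr19:6906697-6910106) shares 409 exon bases with Trmt112 on the opposite strand, and whether reads were counted by strand is not given in the sources used here. Trmt112 stood at 33.4 to 41.5 CPM in siNC and 28.5 to 39.0 CPM in siPkm2, with a log2 fold change of -0.15 (edgeR with replicate block, adjusted p = 0.236).

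These calls held without pair 2 and were lost without either other pair. With the block but without pair 1, 0 genes of the whole table passed, and the adjusted p from edgeR was 0.0905 for Sod1, 0.0740 for Cat and 0.0731 for Prdx5. Without pair 3, 0 genes passed and the adjusted p was 0.106, 0.106 and 0.0986. The log2 fold changes of Sod1, Cat and Prdx5 were -0.57, -0.75 and 0.82 without pair 1 and -0.68, -0.70 and 0.86 without pair 3. Without pair 2, all 3 passed, with log2 fold changes of -0.68, -0.60 and 0.97, in a fit where 39.1% of all genes tested passed.

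**Figure D2:**
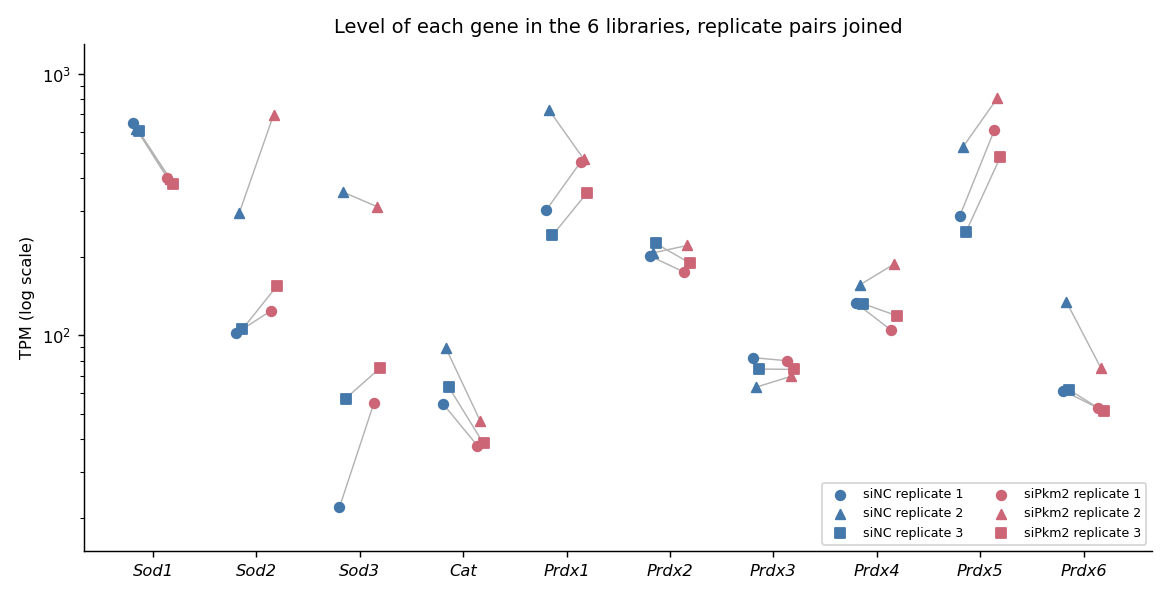
TPM (log scale) of the 10 genes in the 6 libraries, siNC in blue and siPkm2 in red, with symbols for the replicate number and grey lines joining libraries of equal number. Sod1 and Cat drop and Prdx5 climbs along all 3 lines, and replicate 2 (triangles) lies far above the other replicates for Sod2 and Sod3.

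Sod2, the manganese enzyme of the mitochondrial matrix and a known target of NF-kB, was set mostly by replicate 2. It stood at 56.5, 157 and 52.8 CPM in siNC replicates 1 to 3 and at 66.4, 346 and 75.2 CPM in siPkm2. Replicate 2 was 2.87-fold above the mean of the other replicates in siNC and 4.89-fold in siPkm2, and the groups overlapped. Within pairs, siPkm2 was higher in 3 of 3, by 0.23, 1.14 and 0.51 on the log2 scale. The log2 fold change was 0.63 with the block (SE 0.18, edgeR, adjusted p = 0.0588) and 0.87 without it (SE 0.76, adjusted p = 0.607). DESeq2's Wald test with the block gave 0.64 with an adjusted p of 0.00648, so the call for Sod2 turned on the tool, and with this tool 4 of 10 genes passed, against 26.5% of all genes tested.

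Sod3, the extracellular enzyme, had the widest spread of all 10 genes. It stood at 53.5, 756 and 127 CPM in siNC replicates 1 to 3 and at 133, 697 and 175 CPM in siPkm2. Replicate 2 was 8.38-fold above the mean of the other replicates in siNC and 4.53-fold in siPkm2, a gap larger than the difference between the groups in any pair. The differences within pairs were 1.30, -0.12 and 0.46 on the log2 scale, and the log2 fold change with the block was 0.54 (SE 0.27, edgeR, adjusted p = 0.188). Sod2 and Sod3 were the members whose replicate 2 lay over 2-fold above the mean of the other replicates in both groups, 2 of 10, against 6.32% of all genes tested. The fall of the chondrocyte markers and the high NF-kB response genes in replicate 2 moved with both, and their part in these levels was not tested.

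The promoter of Sod2, at chr17:13007589-13007838 (plus strand), is shown because of this gene's level in replicate 2, with its GC boxes in capitals.
Sod2: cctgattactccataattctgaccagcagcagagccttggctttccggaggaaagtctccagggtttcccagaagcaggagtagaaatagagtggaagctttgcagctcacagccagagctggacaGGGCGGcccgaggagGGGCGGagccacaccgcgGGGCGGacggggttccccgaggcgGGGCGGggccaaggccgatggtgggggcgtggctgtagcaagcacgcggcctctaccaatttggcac
It held 4 GC boxes between 124 and 67 bases before the start site and no match to the letters GGGA, any 2 bases and TTCC. These letters, a strict form of the NF-kB site, were held by 1.21% of all RefSeq promoters of this length and 0 of the 8 promoters here. Looser forms of the site were not sought, so the window cannot be said to lack an NF-kB site. In the GENCODE annotation the gene (ENSMUSG00000006818) lies at chr17:13006846-13040063, so the window before the RefSeq start site falls inside it. The bases before the GENCODE start were not searched. Sod3 (ENSMUSG00000072941) lies at chr5:52363791-52371418.

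**Figure D3:**
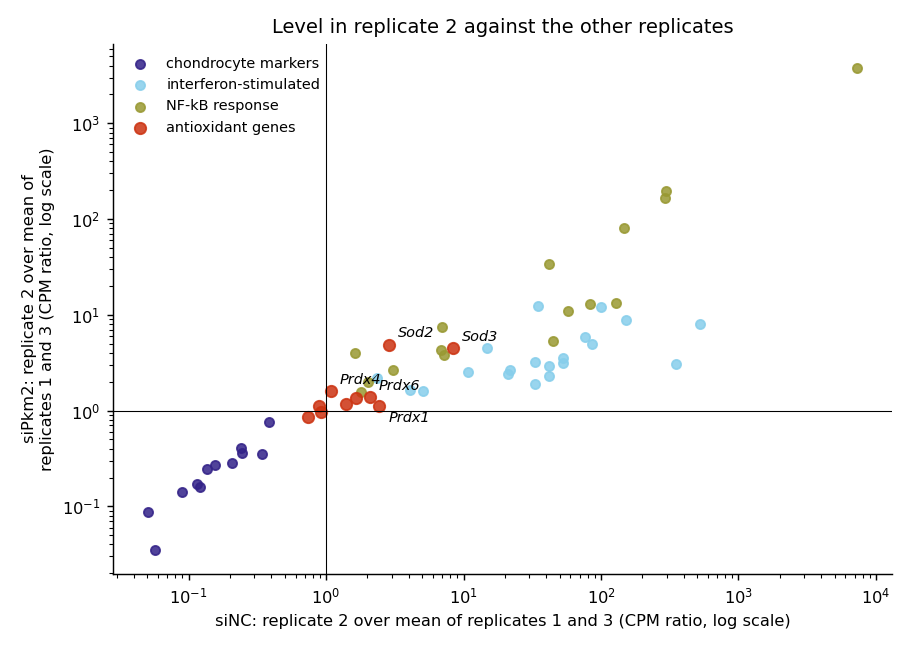
Ratio of replicate 2 to the mean of replicates 1 and 3 (CPM, log axes) in siNC and in siPkm2, for the 10 antioxidant genes, NF-kB response genes, interferon-stimulated genes and chondrocyte markers. 1 NF-kB response gene, at 0 in replicates 1 and 3 of siNC, is not drawn. Sod2 and Sod3 lie above 1 on both axes, among the lower NF-kB response genes. Cat, Prdx1, Prdx4, Prdx5 and Prdx6 also lie above 1 on both, while the 12 chondrocyte markers lie below 1 on both.

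Genes whose log2 CPM followed Sod3 and Sod2 most closely were sought among all genes tested. For Sod3 these were Vsir, Abhd2 and Trim11, with Pearson correlations of 0.997, 0.996 and 0.996 over 6 libraries. For Sod2 they were Tpst2, Slc31a2, a copper transporter, and Nfkbie, an inhibitor of NF-kB, at 0.997, 0.997 and 0.996. For Prdx5, the member with the next widest spread, they were Ppp2r2a, Cdc25a and Tmbim4, at 0.998, 0.997 and 0.996. All points share the same 6 libraries with replicate 2 far out for Sod2 and Sod3, and 143 to 288 genes correlated above 0.95 with each of these 3 members, so the values are descriptions only.

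On the TPM scale, Sod2 over Sod1 was 0.157, 0.474 and 0.175 in siNC replicates 1 to 3 and 0.309, 1.76 and 0.407 in siPkm2, so that Sod2 exceeded Sod1 only in siPkm2 replicate 2 of the 6 libraries. The ratio was higher in siPkm2 in 3 of 3 pairs, while the groups overlapped. The summed TPM of the 6 peroxiredoxins over that of Cat was 19.4, 20.3 and 15.6 in siNC and 39.0, 39.0 and 32.8 in siPkm2, with no overlap. Both ratios rest on the levels given for their genes and were not tested on their own.

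Prdx1, an abundant cytosolic peroxiredoxin and NRF2 target, differed in opposite directions between pairs. It stood at 256, 538 and 185 CPM in siNC replicates 1 to 3 and at 403, 387 and 295 CPM in siPkm2. siPkm2 was higher by 0.65 and 0.67 on the log2 scale in pairs 1 and 3, while the difference in pair 2 was -0.47, where the siNC library was the highest of all 6. The log2 fold change with the block was 0.29 (SE 0.25, edgeR, adjusted p = 0.425). Without pair 2 and with the block it was 0.65 with an adjusted p of 0.00184, and in that fit 6 of 10 members passed, Sod1 and Cat lower and Sod2, Sod3, Prdx1 and Prdx5 higher, against 39.1% of all genes tested. There Sod2 had a log2 fold change of 0.36 (edgeR, adjusted p = 0.0273) and Sod3 of 0.87 (edgeR, adjusted p = 0.0110). Whether the response of pair 2 differed from the others was not tested, since a pair holds 1 library per group.

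**Figure D4:**
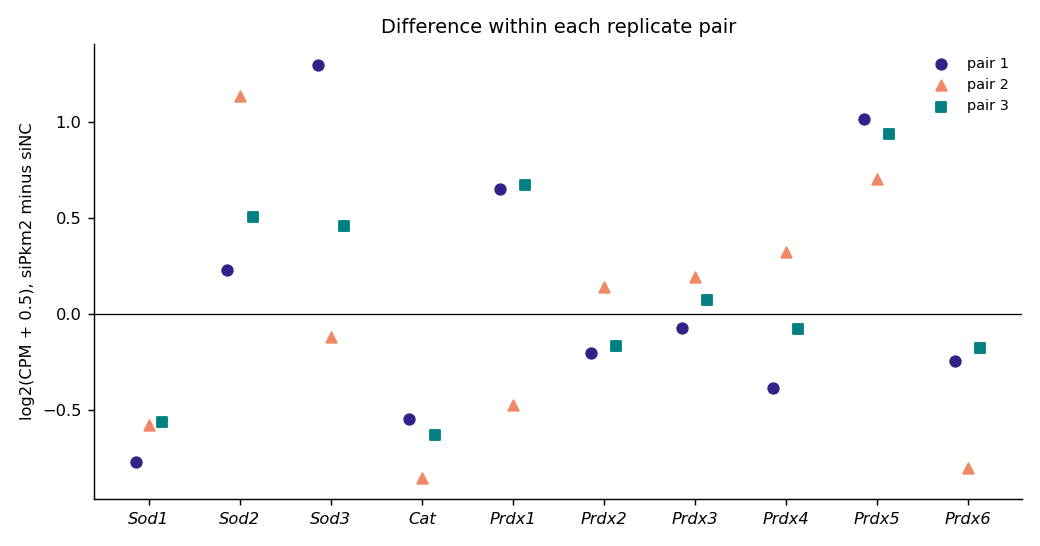
Difference in log2(CPM + 0.5), siPkm2 minus siNC, within each replicate pair for the 10 genes. Prdx5 lies above 0 and Sod1 and Cat lie below 0 in all pairs, while Prdx1 lies at 0.65 and 0.67 in pairs 1 and 3 and at -0.47 in pair 2.

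The promoter of Prdx1, at chr4:116685349-116685598 (plus strand), is shown because it is the other of the 8 with an antioxidant response element core, in capitals on the opposite strand, beginning 133 bases before the start site. The gene (ENSMUSG00000028691) lies at chr4:116685544-116700822.
Prdx1: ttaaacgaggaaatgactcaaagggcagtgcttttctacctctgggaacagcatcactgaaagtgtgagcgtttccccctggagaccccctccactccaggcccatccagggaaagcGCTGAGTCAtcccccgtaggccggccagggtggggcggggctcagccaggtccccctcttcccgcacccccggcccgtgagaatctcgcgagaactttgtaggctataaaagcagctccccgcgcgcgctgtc

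Among the partners that keep peroxiredoxins reduced, Srxn1 and Txnrd1 were higher in siPkm2 in pairs 1 and 3 but not in pair 2. Srxn1, the sulfiredoxin that repairs overoxidised peroxiredoxins, stood at 38.4, 106 and 33.5 CPM in siNC replicates 1 to 3 and at 77.2, 102 and 65.1 CPM in siPkm2. Txnrd1, the cytosolic thioredoxin reductase, stood at 102, 285 and 71.9 CPM in siNC and 187, 259 and 147 CPM in siPkm2. The differences in pair 2 were -0.06 for Srxn1 and -0.14 for Txnrd1, nearer to 0 than the -0.47 of Prdx1, and Txn2 and Txnrd2, the mitochondrial thioredoxin and its reductase, were higher in 3 of 3 pairs. With the block, the log2 fold change was 0.63 for Srxn1 (SE 0.23, edgeR, adjusted p = 0.0995) and 0.59 for Txnrd1 (SE 0.24, edgeR, adjusted p = 0.127). Without pair 2 it was 0.97 for Srxn1 and 0.94 for Txnrd1 (edgeR with block, adjusted p = 0.000445 and 0.000569). Txn1, cytosolic thioredoxin, had a log2 fold change of 0.26 with the block (edgeR, adjusted p = 0.201). Its differences in pairs 1 to 3 were 0.29, -0.06 and 0.54, likewise higher in siPkm2 in pairs 1 and 3 only. Without pair 2 the log2 fold change of Txn1 was 0.41 (edgeR with block, adjusted p = 0.0161).

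In a list of 11 tested genes for thioredoxins and peroxiredoxin repair, sestrins included, 2 rose and 2 fell with the block. Over all genes tested 23.1% passed. The median log2 fold change of the list was 0.26, against -0.010 over all genes tested. Txn2, mitochondrial thioredoxin, rose by 0.31 (SE 0.077, edgeR with block, adjusted p = 0.0416), and Sesn2, a stress-induced sestrin, by 0.45 (SE 0.095, adjusted p = 0.0289). Sesn3 fell by 0.65 on the log2 scale (edgeR with block, adjusted p = 0.0251), as did Sesn1, likewise by 0.65 (adjusted p = 0.0406). Apart from Txn2, the genes of this list that passed with the block were thus sestrins, and Srxn1 did not pass. Without pair 2 the count was 5 higher and 3 lower of 11, in the fit where 39.1% of all genes tested passed. Without the block, 0 genes of this list and of the partner lists that follow passed.

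The other peroxiredoxins did not pass in either fit. Prdx2, a cytosolic enzyme abundant in red cells, stood at 170, 152 and 172 CPM in siNC and 147, 168 and 153 CPM in siPkm2, with a log2 fold change of -0.08 with the block (SE 0.10, edgeR, adjusted p = 0.607). It had the narrowest spread of the 10, and the 7 red cell markers, the globin genes Hba-a1, Hba-a2 and Hbb-bs among them, summed to at most 7.18 CPM in any library. Its exons share 173 bases with Junb and 177 with Rnaseh2a, both on the opposite strand, and Junb, an AP-1 subunit, rose by 1.05 on the log2 scale (edgeR with block, adjusted p = 0.0286) while Prdx2 did not pass.

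Prdx3, the peroxiredoxin of the mitochondrial matrix, stood at 70.9, 47.5 and 57.2 CPM in siNC and 67.4, 54.4 and 60.2 CPM in siPkm2. The groups overlapped, replicate 2 was the lowest of each, and the log2 fold change with the block was 0.06 (SE 0.088, edgeR, adjusted p = 0.617). Prdx5 over Prdx3 on the TPM scale was 3.48, 8.28 and 3.35 in siNC and 7.60, 11.6 and 6.50 in siPkm2, higher in 3 of 3 pairs.

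Prdx4, the peroxiredoxin of the endoplasmic reticulum, which helps to form disulfide bonds in secreted proteins, stood at 69.6, 70.3 and 60.9 CPM in siNC and 53.0, 88.0 and 57.7 CPM in siPkm2. siPkm2 was lower in pairs 1 and 3 and higher in pair 2, and the log2 fold change with the block was -0.05 (SE 0.15, edgeR, adjusted p = 0.833). Its direction turned with several settings. Ero1a, the oxidase that makes hydrogen peroxide in the same compartment, had a log2 fold change of 0.37 (SE 0.14, edgeR with block, adjusted p = 0.104).

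Prdx6, the peroxiredoxin that uses glutathione and also acts on phospholipids, stood at 62.6, 124 and 56.2 CPM in siNC and 52.8, 70.6 and 49.7 CPM in siPkm2. It was lower in siPkm2 in 3 of 3 pairs, with differences of -0.24, -0.80 and -0.18 on the log2 scale, but the high siPkm2 replicate 2 overlapped the low siNC libraries. The log2 fold change with the block was -0.41 (SE 0.14, edgeR, adjusted p = 0.0893). These 4 genes lie at chr8:84969587-84974834 (Prdx2), chr19:60864051-60874556 (Prdx3), chrX:155323918-155340754 (Prdx4) and chr1:161240112-161251219 (Prdx6), and the listed copies Prdx1-ps, Prdx2-ps1, Prdx2-ps2, Prdx6-ps2 and Prdx6b had 0 counts in every library.

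Ordered by mean TPM, siNC cells carried Sod1 at 623 ± 23.1 (SD, n = 3), Prdx1 at 422 ± 263, Prdx5 at 353 ± 150 and Prdx2 at 211 ± 12.1 TPM. These were followed by Sod2 at 167 ± 109, Sod3 at 144 ± 182, Prdx4 at 140 ± 13.5, Prdx6 at 85.9 ± 42.1, Prdx3 at 73.3 ± 9.44 and Cat at 69.1 ± 18.0 TPM. Of these neighbours, only Prdx5 and Prdx2 did not overlap in their libraries. In siPkm2 the order was led by Prdx5 at 632 ± 164, Prdx1 at 427 ± 67.0, Sod1 at 392 ± 11.8 and Sod2 at 325 ± 323 TPM, and Sod1 thus stood behind both Prdx5 and Prdx1. Then came Prdx2 at 195 ± 23.6, Sod3 at 147 ± 142, Prdx4 at 137 ± 44.0, Prdx3 at 74.6 ± 5.18, Prdx6 at 59.7 ± 13.4 and Cat at 41.2 ± 5.01 TPM. In siPkm2 the neighbours that did not overlap were Prdx5 and Prdx1, Prdx4 and Prdx3, and Prdx6 and Cat.

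Glutathione peroxidases, a family named for the removal of peroxides with glutathione, gave 1 higher and 1 lower of 5 tested genes with the block. The share passing over all genes tested was 23.1%. Gpx3, the secreted enzyme, stood at 15.2, 42.5 and 24.2 CPM in siNC and 51.2, 90.7 and 81.9 CPM in siPkm2, with no overlap, and rose by 1.53 on the log2 scale (SE 0.16, edgeR with block, adjusted p = 0.0112). Gpx7, an enzyme of the endoplasmic reticulum, fell by 0.71 (SE 0.085, adjusted p = 0.0128), also with no overlap. Gpx1 and Gpx4, the cytosolic and the phospholipid enzyme, had log2 fold changes of 0.16 and 0.37 (edgeR with block, adjusted p = 0.228 and 0.0531).

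Among 12 tested genes of glutathione synthesis and reduction, 3 rose and 1 fell with the block, where 23.1% of all genes tested passed. The median log2 fold change of this list was 0.46. Gsr, glutathione reductase, stood at 25.5, 51.1 and 15.1 CPM in siNC and 66.6, 77.6 and 46.2 CPM in siPkm2, and rose by 1.19 on the log2 scale (SE 0.205, edgeR with block, adjusted p = 0.0194). The glutaredoxins differed in direction, with Glrx5 higher by 0.75 (edgeR with block, adjusted p = 0.0119), Glrx3 higher by 0.43 (adjusted p = 0.0470) and Glrx lower, at -0.60 (adjusted p = 0.0399). Without pair 2 the count was 7 higher and 2 lower of 12, where 3009 genes were higher and 2932 lower of 15185 tested in the whole table.

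Genes that supply metal to the dismutases gave 1 higher and 0 lower of 8 tested with the block, where 23.1% of all genes tested passed. Slc39a14, which imports manganese and zinc, rose by 0.44 on the log2 scale (SE 0.10, edgeR with block, adjusted p = 0.0373). Ccs, the copper chaperone of SOD1, stood at 35.2, 23.2 and 27.8 CPM in siNC and 29.2, 29.3 and 28.2 CPM in siPkm2, with a log2 fold change of 0.03 (SE 0.14, edgeR with block, adjusted p = 0.893). The groups overlapped for Ccs, unlike for Sod1.

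Of 15 tested genes of peroxisome biogenesis, the compartment of catalase, 1 rose and 0 fell with the block, where 23.1% of all genes tested passed. The median log2 fold change of this list was -0.071. Pex6, an ATPase that recycles the import receptor, rose by 0.87 (SE 0.105, edgeR with block, adjusted p = 0.0128), while Cat fell. Of the receptor Pex5 itself, the log2 fold change was 0.21 (edgeR with block, adjusted p = 0.104).

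Of 12 tested genes that make superoxide or peroxide, 1 rose and 1 fell with the block, where 23.1% of all genes tested passed. Xdh, xanthine dehydrogenase, stood at 8.65, 157 and 20.4 CPM in siNC and 47.2, 257 and 115 CPM in siPkm2, and rose by 1.86 on the log2 scale (SE 0.39, edgeR with block, adjusted p = 0.0278), with replicate 2 10.8-fold above the other replicates in siNC. Acox3, a peroxisomal oxidase, fell by 0.53 (SE 0.086, edgeR with block, adjusted p = 0.0176).

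**Figure D5:**
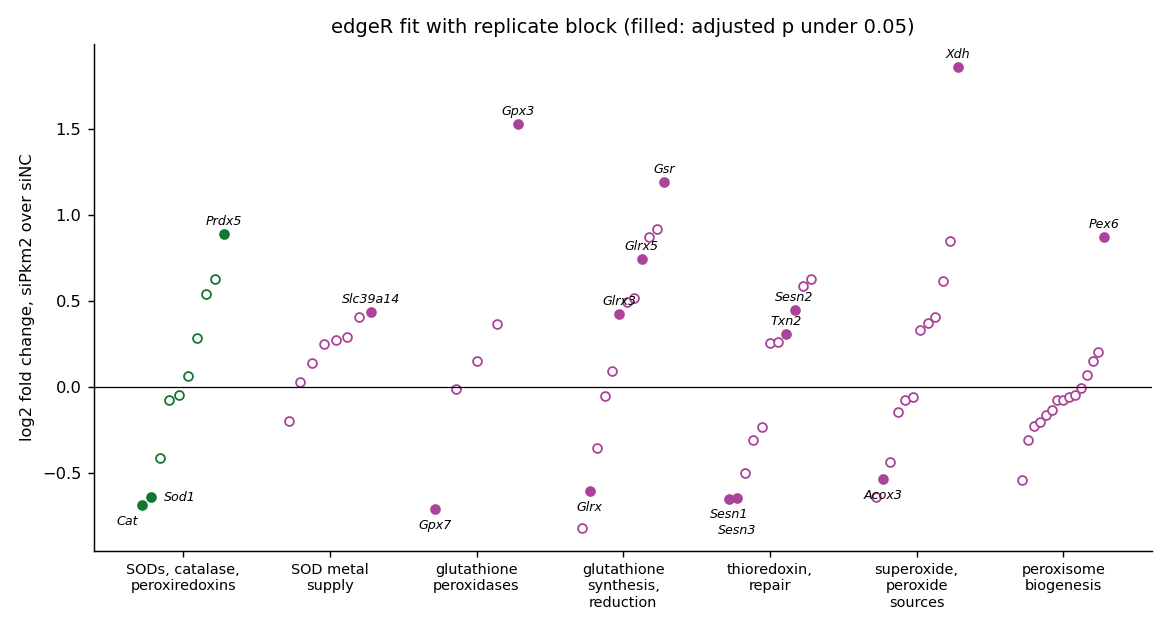
Log2 fold change (siPkm2 over siNC) from edgeR with the replicate block for the 10 antioxidant genes and 6 lists of partner genes, sorted within each list, with filled and named circles for an adjusted p under 0.05. Most circles are open, and filled circles lie on both sides of 0 in 5 of the 7 columns.

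Outside the antioxidant genes, calls with the block are given beside the 23.1% of all genes tested that passed, and without the block 0 genes of these lists passed. Of 20 interferon-stimulated genes, 9 rose and 0 fell with the block. Their summed level was 145 to 2683 CPM in siNC and 1505 to 4891 CPM in siPkm2, replicate 2 giving the upper sum of both groups. The median log2 fold change of this list was 3.01 with the block, against -0.010 over all genes tested. Without pair 2 the list had 20 higher and 0 lower of 20, in the fit where 39.1% of all genes tested passed. Of 17 NF-kB response genes 4 rose and 0 fell, the sums running from 166 to 12382 CPM in siNC and from 372 to 12663 CPM in siPkm2. Here too replicate 2 gave the upper sums. The NF-kB list had a median log2 fold change of 0.58 with the block, and without pair 2 it had 10 higher and 1 lower of 17. Of the cell type markers, 1 of 12 for chondrocytes (Matn3), 1 of 6 for leukocytes (Cd14) and 3 of 10 for fibroblasts and synovium (Prg4, Pdpn and Cd34) rose and 0 fell. The summed fibroblast and synovial markers ran from 8740 to 15998 CPM in siNC and from 5907 to 11885 CPM in siPkm2, the median log2 fold change of this list was -0.23 with the block, and without pair 2 it had 3 higher and 4 lower of 10. Their part in the levels of the dismutases, catalase and peroxiredoxins was not tested.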

How the data were processed

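RNA-seq of primary mouse chondrocytes comprised 3 siNC and 3 siPkm2 libraries. The authors deposited estimated counts per gene, not normalized, and TPM values scaled within each library. Group means, fold ratios, log2 fold changes and p-values of the authors' own comparison were also deposited and were not used here. The labels' processing notes name mm9 and edgeR, the table is named for DESeq2, and the aligner and counter are not given in the sources used here.

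Counts were rounded and fitted in edgeR 4.0.16 (R 4.3.3) after filterByExpr and TMM scaling, with p-values adjusted by Benjamini-Hochberg over the 15269 genes that were tested and a call at an adjusted p under 0.05. SE was the log2 fold change divided by the root of F. The fit without block was the main one. The replicate numbers paired the libraries: deviations from group means correlated at 0.66, 0.76 and 0.65 for equal numbers and at 0.16 or less for different ones. No library duplicated another of its own group, since 53.6% to 73.7% of genes differed beyond sampling noise (1.96 SD). Libraries of different groups were not compared in this way. As alternatives, RLE factors, upper-quartile factors, DESeq2 1.42.0, limma 3.58.1 on log2(TPM + 1) and log2(TPM + 0.1), no filter, 10 counts in every library, the block, and leaving out libraries or pairs were tried. In the fit of 2 pairs with block, edgeR's prior pools the spread over genes.

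Positions came from GENCODE M21 on GRCm38, which held 52083 of 55416 identifiers, and promoters from RefSeq (GRCm38.p6). All 10 members were named, with Pkm, up to 3 genes of lowest p per direction in each partner list, genes that a relation with a member turned on, and, for the 3 members of widest spread, the 3 best correlated genes. Members and lists were chosen with earlier results of these data known. 1 gene of the list of superoxide and peroxide sources is not reported here.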

Additional observations from a re-analysis of the deposited data

How the results depend on the processing

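Without the block, 0 genes and 0 members passed an adjusted p under 0.05 in edgeR, while 2690 genes had an unadjusted p under 0.05. The number of genes passing was 0 with RLE factors, 3 with upper-quartile factors, 823 with DESeq2, 1 with limma at either pseudocount, 9 with no filter, 3 with at least 10 counts in every library, and 699 without both replicate 2 libraries. Leaving out each library in turn gave 0 to 105 genes, the 105 without siNC replicate 2, and 0 members. With the replicate block 3524 genes passed, and 3884 with the block in DESeq2, 5941 with the block without pair 2, and 0 with the block without pair 1 or pair 3. The members passing were 1 with DESeq2 (Sod1, adjusted p = 0.0343), 3 with the block, 4 with the block in DESeq2, 6 with the block without pair 2, and 0 under the other alternatives. The cause of these differences was not tested.

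Sod1, Cat, Prdx2, Prdx5, Prdx6 and Pkm kept the sign of their log2 fold change under all 19 alternatives. Sod1 ranged from -0.71 to -0.53, Cat from -0.79 to -0.52 and Prdx5 from 0.70 to 1.16. Prdx3 turned to -0.017 with upper-quartile factors, -0.016 without both replicate 2 libraries, and -0.0099 with the block without pair 2, and Prdx4 turned to 0.13 with the block without pair 1. With 1 library left out, the log2 fold change ranged from -0.32 to 1.58 for Sod2, -1.02 to 1.89 for Sod3, -0.13 to 0.72 for Prdx1, -0.077 to 0.22 for Prdx3 and -0.27 to 0.12 for Prdx4. Each group held 3 libraries, and depth was not varied.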
